A study of Mus musculus with 4 samples.

Results

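The 39 Hox genes of the mouse, the homeodomain transcription factors of the Hoxa, Hoxb, Hoxc and Hoxd clusters, were examined for chromatin occupancy by the clock repressor NR1D1, also called REV-ERB alpha. They were taken from 21887 protein-coding genes of the RefSeq annotation by their symbols, and the 4 clusters were read from the first to the last Hox gene plus 10 kb on each side. The values come from CUT&Tag, in which an antibody directs a transposase to the chromatin beside a bound protein. Wild-type primary smooth muscle cells from mouse aorta were kept for 24 h with phosphate-buffered saline (PBS) or with vasostatin-2, a peptide of chromogranin A, and 1 library per treatment was made with the NR1D1 antibody. Both libraries bear the same batch label, and the IgG libraries named in the labels were not analysed here. The peak lists hold 7377 peaks for PBS and 8816 for vasostatin-2. With 1 library per treatment nothing measures the spread between cultures, so no treatment effect was tested, and all intervals cover counting error only. The labels do not say whether aortas were pooled. Peaks do not measure expression, so the cell type itself could not be checked. Among smooth muscle markers Myh11 had a peak in either list and Smtn in PBS, while Acta2, Tagln and Cnn1 had none. Endothelial and fibroblast markers had peaks in both lists too.

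Hox genes give cells their position along the body axis, and adult smooth muscle cells keep a Hox pattern that reflects where in the aorta they arose. Within a cluster the genes lie in the order of their 13 paralog groups and are transcribed in the same direction. In cells where a cluster is silent it is commonly covered by Polycomb complexes, which mark histone H3 at lysine 27, and where it is active trithorax complexes take their place. NR1D1, a nuclear receptor, binds DNA as a monomer at an AGGTCA core that follows an A/T-rich stretch, and recruits the NCoR and HDAC3 corepressors.

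Each list held 1 peak in the 4 Hox clusters, and both peaks lay at the same place, inside Hoxc6. The Hoxa, Hoxb and Hoxd clusters held 0 peaks in either list. The Hoxa cluster, with 11 Hox genes, lies on chromosome 6. The Hoxb cluster has 10 Hox genes and lies on chromosome 11 from 96194316 to 96368254 on mm10. The Hoxc cluster has 9 on chromosome 15 from 102921131 to 103036856, and the Hoxd cluster 9 on chromosome 2 from 74668225 to 74765142. A count of 0 has an exact Poisson upper limit of 3.69 peaks, and the 1 peak of the Hoxc cluster an interval of 0.0253 to 5.57, so the clusters were not told apart by their counts.

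**Figure D1:**
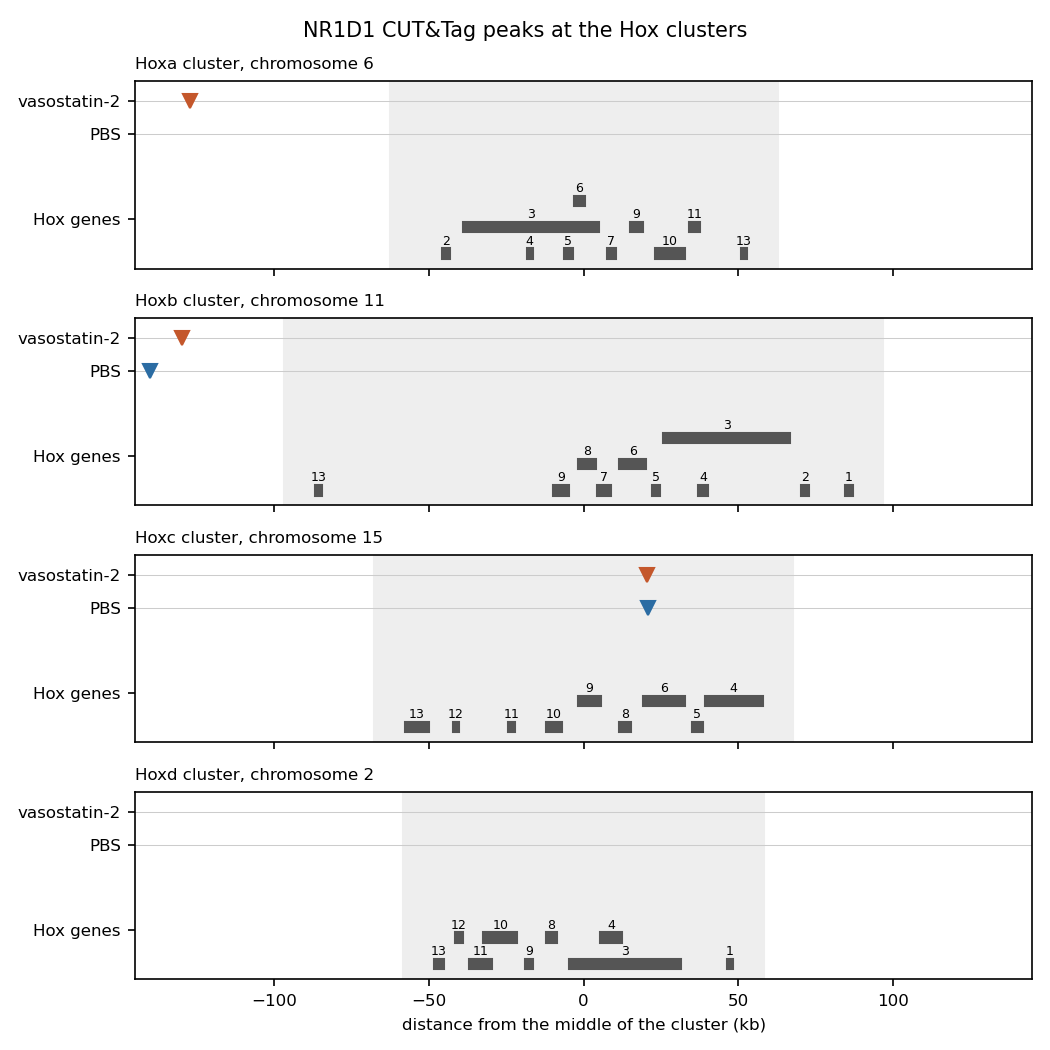
Hox genes (grey boxes, numbered by paralog group; 1 gene is not drawn) and peaks of the PBS list (blue) and the vasostatin-2 list (orange) at the 4 clusters, by distance in kb from the middle of each cluster; grey shading marks the cluster with its 10 kb margins. The only marks inside the shading are the 2 peaks in Hoxc6.

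In the PBS list the Hoxc6 peak ran from 102999479 to 102999954 on chromosome 15, with its summit at 102999726. In the vasostatin-2 list it ran from 102999305 to 102999736, with its summit at 102999521. They overlapped by 258 bp, which is 54.2% of the PBS peak and 59.7% of the vasostatin-2 peak, and their summits were 205 bp apart. Hoxc6, a gene of the middle of the cluster that is known for patterning the thorax, spans 102998226 to 103011882. The summits lay 1500 bp (PBS) and 1295 bp (vasostatin-2) inside its lower-coordinate end. RefSeq places Hoxc4, in the same cluster, on the plus strand, so that end is the upstream one. The gene table gives no exons, and an exonic or intronic position was not assigned. The nearest other gene was the noncoding Gm29905, 1559 and 1354 bp from the summits. Hoxc8 was the nearest other Hox gene, at 5451 and 5246 bp, and Hoxc5 was 14282 and 14487 bp away on the other side.

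By strength the Hoxc6 peak lay below the middle of the PBS list and near the middle of the vasostatin-2 list. The authors' fold enrichment over the caller's background was 4.69 for PBS and 4.94 for vasostatin-2, against list medians of 5.33 and 5.07. Their -log10 q-values were 2.7 and 3, against medians of 3.76 and 3.18. The summit held 7 fragments in each library (exact Poisson interval 2.81 to 14.4), against list medians of 8 and 7, over a recovered background of 0.705 and 0.621 fragments. The lowest background recovered in the lists was 0.31 and 0.381 fragments, while total reads are not given in the sources used here. No difference between the libraries was detectable at 7 fragments. By fold, 33.0% of PBS peaks and 44.1% of vasostatin-2 peaks ranked lower. The peaks were wide for their lists, at 476 and 432 bp, and 83.3% and 87.8% of peaks were narrower.

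Over each whole list 35.6% of PBS peaks and 30.0% of vasostatin-2 peaks overlapped a peak of the other list, and sharing was less common among peaks with 7 fragments. Of 864 PBS peaks with 7 fragments 23.7% (95% Wilson interval 21.0 to 26.7) were shared, and of 1127 vasostatin-2 peaks 25.8% (23.4 to 28.5). The Hoxc6 peak was thus 1 of a minority in its class that appeared in both lists, although the class was not matched for the width of peaks. Its summits were too far apart to count as shared when they must lie within 200 bp of each other.

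**Figure D2:**
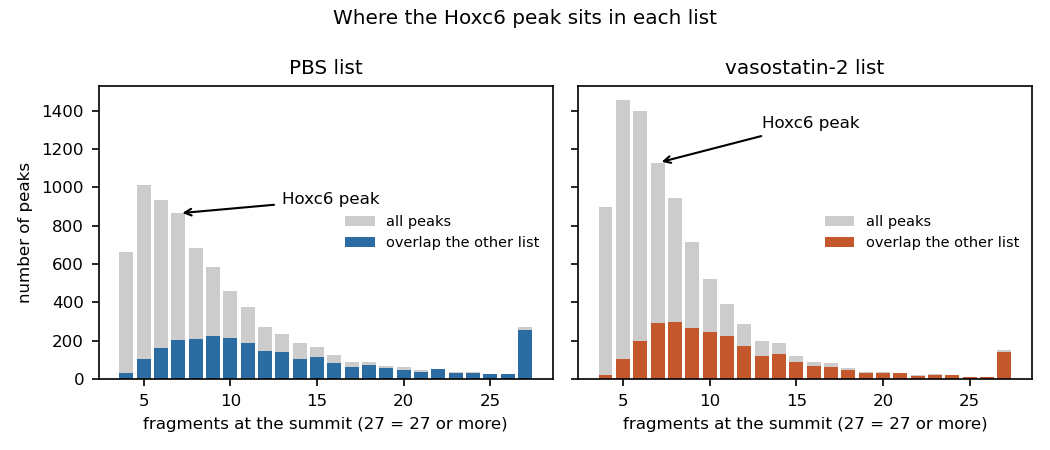
Number of peaks (vertical axis) by fragments at the summit (horizontal axis) in the PBS and vasostatin-2 lists, with all peaks in grey and those that overlap the other list in colour. Arrows mark the class of the Hoxc6 peak, 7 fragments in both lists, where most peaks are in 1 list.

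Counted by gene, 1 of 39 Hox genes (2.56%, Wilson interval 0.454 to 13.2) had a peak in the gene or within 3 kb of it, in either list. Among all protein-coding genes the share was 24.2% for PBS and 22.3% for vasostatin-2. Hox genes are short, with a median length of 3737 bp against 17169 bp. Of genes no longer than Hoxa3, the longest Hox gene, 20.3% and 16.6% had a peak. The intervals for the Hox genes lie below these shares, but neighbouring Hox genes share their surroundings and are not independent. Hoxa3 spans 44009 bp, far above the Hox median, so this limit does not match the lengths. Within 3 kb of either gene end alone, 18.1% and 13.8% of all genes had a peak, the second close to the upper limit of 13.2%. The part of length was not tested. By paralog group the counts were 0 of 12 genes of groups 1 to 4, 1 of 11 of groups 5 to 8, and 0 of 16 of groups 9 to 13. No comparison among these groups was possible with 1 gene.

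Counted by length, the clusters did not stand out. The windows cover 572.1 kb, and the mean density of each list (0.277 and 0.332 peaks per 100 kb) would put 1.59 PBS and 1.9 vasostatin-2 peaks there. The genome was divided into tiles of 143 kb, the mean length of a cluster window. Of these tiles 26.5% held a PBS peak and 32.4% a vasostatin-2 peak, beside 1 of 4 clusters. Tiles as rich in genes as a Hox cluster, with at least 9 starts of protein-coding genes, held one more often. Of these 172 tiles 72.7% had a PBS peak and 70.9% a vasostatin-2 peak. With 4 clusters the difference from such tiles was not tested.

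The Hoxa, Hoxb and Hoxd clusters each lay in an interval without peaks that was longer than the median. This follows in large part from their count of 0. Their windows, of 125.5, 193.9 and 116.9 kb, by themselves come near or pass the medians given here. In the PBS list the interval around the Hoxa cluster measured 1336 kb, that around Hoxd 1124 kb and that around Hoxb 497 kb, where the median distance between neighbouring peaks was 124 kb. In the vasostatin-2 list they were 447, 1512 and 615 kb, with a median of 129 kb. Such intervals are few but cover much of the genome: 42.7% of the peak-free bases of the PBS list lie in intervals longer than that of Hoxa, and 29.6% of those of the vasostatin-2 list in intervals longer than that of Hoxd. These are the longest of the intervals at the clusters. For the others the share was 47.6% (Hoxd) and 70.7% (Hoxb) in the PBS list, and 64.1% (Hoxa) and 54.5% (Hoxb) in the vasostatin-2 list, so for 3 of these 4 most of the peak-free bases lie in longer intervals. The peak-free stretches on either side of the Hoxc6 peak were 374 and 239 kb in the PBS list and 277 and 215 kb in the vasostatin-2 list, with 76.7% to 85.3% of the bases in longer ones.

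Within 100 kb of the clusters the lists held 3 further peaks, each in 1 list. A vasostatin-2 peak of 8 fragments (5.26-fold) lay 74.5 kb below the Hoxa cluster. Inside Ttll6, a tubulin-modifying enzyme gene beside Hoxb13, a PBS peak of 6 fragments (3.84-fold) and a vasostatin-2 peak of 9 fragments (6.07-fold) lay at different sites, 53.2 and 43 kb from the cluster. At every Hox gene of the Hoxa and Hoxd clusters the nearest PBS peak was 252 to 545 kb away. In the vasostatin-2 list the nearest peak to Hoxa13, a gene of limb and urogenital development, was 178 kb away, and the nearest to Hoxd13 315 kb.

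In the clusters 1 noncoding gene had a peak, a count too small for a comparison with all noncoding genes. Of 27 long noncoding RNA genes 1, Gm29905, had a peak within 3 kb in each list, which is the Hoxc6 peak. Of all long noncoding RNA genes 9.79% had one for PBS and 10.4% for vasostatin-2. Hotair and Hottip, which are known for work on Polycomb and trithorax recruitment, had 0, as did Hotairm1 and Haglr. None of the 6 microRNA genes had one, beside 6.03% and 6.60% of all microRNA genes. The differences from these shares were not tested. The nearest to a peak was Mir615, 15 kb (PBS) and 15.2 kb (vasostatin-2) from the Hoxc6 peak, and the next was Mir196a-2, at 26.1 and 25.9 kb.

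Promoter sequences from 250 bp before to 50 bp after the start were matched for 22 of the 39 genes (RefSeq, GRCm38.p6), as 24 sequences, since Hoxa10 and Hoxd11 have alternative starts. Hoxc6 is among the genes not matched. Each sequence was searched on both strands for AGGTCA, for TAGGTCA, for the longer REV-ERB element AANTAGGTCA and for the direct repeat AGGTCANNAGGTCA, where the first 3 motifs contain one another. AGGTCA was found in 7 Hox promoters (29.2%, against 16.3% of 32851 promoters), those of Hoxa5, Hoxb4, Hoxc4, Hoxd3, Hoxd4, Hoxd8 and Hoxd10. TAGGTCA was found in 3 (12.5%, against 2.61%). The full element was found in the Hoxd3 promoter alone (4.17%, against 0.219%), and the direct repeat in none (0.00913% of all promoters). The Hox shares rest on few of 24 sequences, the 32851 promoters include those of noncoding genes, and the differences were not tested. The 3 promoters with TAGGTCA are shown because they carry the receptor's letters and yet had no peak within 1 kb in either list. All are written 5′ to 3′ on the gene's strand. Capitals mark the match, which in each lies on the opposite strand and so reads as its reverse complement, and for Hoxd3 they cover the full element.

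Hoxd3, chr2:74711743-74712042, plus strand: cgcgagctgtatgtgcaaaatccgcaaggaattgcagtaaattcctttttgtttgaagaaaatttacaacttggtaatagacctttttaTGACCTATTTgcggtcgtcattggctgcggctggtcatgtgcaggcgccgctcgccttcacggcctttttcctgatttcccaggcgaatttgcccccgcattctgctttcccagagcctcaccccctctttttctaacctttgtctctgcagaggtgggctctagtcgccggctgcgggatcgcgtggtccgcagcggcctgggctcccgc
Hoxb4, chr11:96318017-96318316, plus strand: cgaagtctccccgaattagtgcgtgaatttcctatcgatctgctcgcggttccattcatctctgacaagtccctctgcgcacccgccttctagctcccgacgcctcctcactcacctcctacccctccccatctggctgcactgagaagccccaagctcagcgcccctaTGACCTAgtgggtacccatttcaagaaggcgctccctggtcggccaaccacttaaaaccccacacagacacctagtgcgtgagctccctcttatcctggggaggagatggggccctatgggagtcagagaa
Hoxc4, chr15:103034145-103034444, plus strand: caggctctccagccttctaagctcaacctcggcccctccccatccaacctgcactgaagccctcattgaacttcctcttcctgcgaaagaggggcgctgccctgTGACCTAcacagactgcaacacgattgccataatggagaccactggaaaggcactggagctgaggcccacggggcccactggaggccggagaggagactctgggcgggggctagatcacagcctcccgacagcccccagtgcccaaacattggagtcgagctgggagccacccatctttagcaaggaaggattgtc

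The matches start 161 bp (Hoxd3), 81 bp (Hoxb4) and 146 bp (Hoxc4) before the start. Hoxd3 and Hoxb4 take part in patterning the neck vertebrae, and Hoxc4 is the most anterior gene of its cluster. The nearest peak to Hoxd3 was 269 kb away for PBS and 238 kb for vasostatin-2. For Hoxb4 the distances were 177 and 167 kb, and for Hoxc4 18.1 and 18.4 kb, to the peak in Hoxc6. For contrast, the promoter of Arntl, the BMAL1 gene and a known target of NR1D1, holds the same element on its own strand, 28 bp after the start, and did have a peak.

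Arntl, chr7:113207261-113207560, plus strand: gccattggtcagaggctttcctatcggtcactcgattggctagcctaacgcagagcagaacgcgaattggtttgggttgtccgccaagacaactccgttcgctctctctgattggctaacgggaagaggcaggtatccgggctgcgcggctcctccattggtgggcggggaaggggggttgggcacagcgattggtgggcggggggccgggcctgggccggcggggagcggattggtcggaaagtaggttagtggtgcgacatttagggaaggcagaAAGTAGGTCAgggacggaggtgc

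The Arntl peak held 19 fragments (7.73-fold) for PBS and 13 (5.91-fold) for vasostatin-2, and its summits lay 207 bp before and 54 bp after this start. It was chosen for display after its values were seen. Over all promoters 11.5% had a PBS peak within 1 kb and 7.81% a vasostatin-2 peak. Of the 5340 promoters with AGGTCA fewer did, 7.85% and 5.09%, and of the 856 with TAGGTCA 8.06% and 6.66%. Of the 72 with the full element 7 (9.72%) and 6 (8.33%) did, and neighbouring starts of Ivns1abp share a PBS peak among them. These sets were not matched for CpG content, which is taken up next, and the differences were not tested.

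Promoters rich in CpG, as those of CpG islands are, had peaks more often than others. CpG content was measured as the ratio of observed to expected CpG in the 300 bp promoter sequence. Protein-coding promoters with a ratio of at least 0.6 had a peak within 1 kb of the start in 27.2% of cases for PBS and 18.4% for vasostatin-2. Below that ratio the shares were 4.62% and 3.05%, and over all 21263 protein-coding promoters 15.4% and 10.4%. Hox promoters had a median ratio of 0.626, from 0.257 at 1 of the Hoxd11 starts to 1.02 at Hoxa5, against a median of 0.567 for all. Of the 24 Hox promoters 12 reached 0.6, among them Hoxa13 (0.918), Hoxd13 (0.904), Hoxb8 (0.97) and Hoxd3 (0.92), and 0 had a peak in either list. By a limit of 3 counts, a count of 0 in 24 allows a share of up to 12.5%, and 0 in 12 up to 25.0%. The share of CpG-rich promoters lies a little above the second limit in the PBS list and below it in the vasostatin-2 list. The exact Poisson limit of 3.69 counts is wider and, in 12 promoters, exceeds the PBS share too. So the number of Hox promoters does not show a difference for vasostatin-2, and for PBS the answer depends on the limit. These sequences stand mainly for Hoxa and Hoxd. Of the Hoxb cluster they include only Hoxb1, Hoxb4 and Hoxb8, and of the Hoxc cluster only Hoxc4. Neighbouring Hox promoters are not independent, and no difference was tested in either list.

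**Figure D3:**
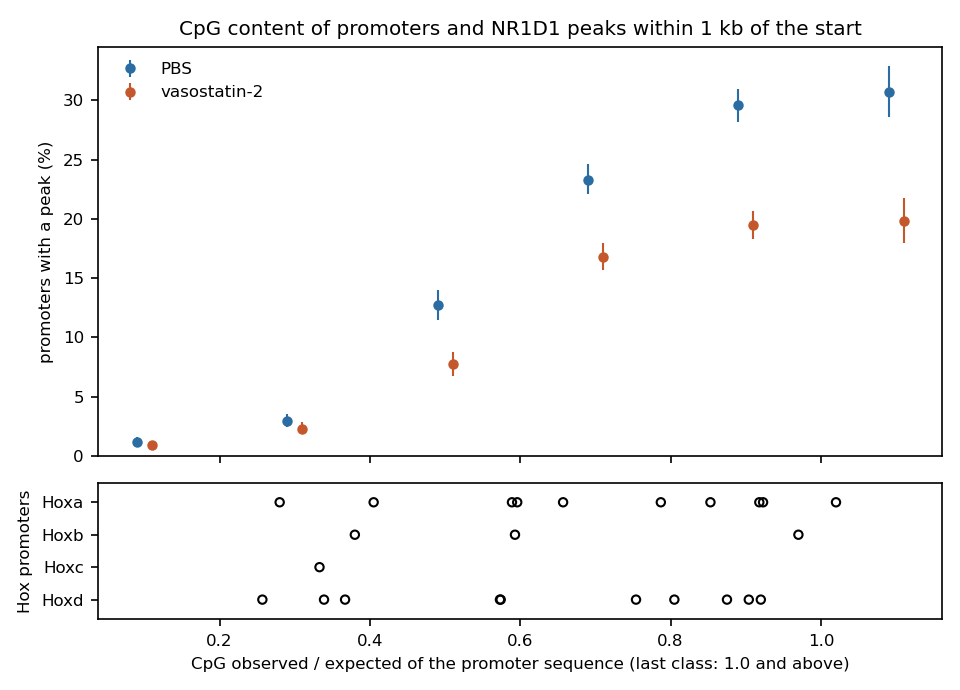
Upper panel: share of protein-coding promoters with a peak within 1 kb of the start (vertical axis, %, with 95% Wilson intervals) by class of the CpG ratio (horizontal axis) for PBS (blue) and vasostatin-2 (orange); lower panel: the CpG ratio of the 24 Hox promoters by cluster. The share rises from 1.19% to 30.7% in the PBS list, and the Hox promoters, with 0 peaks, spread over most of the same range.

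Homeobox genes outside the clusters, the genes most like the Hox genes, carried few peaks too. Of 66 such genes 7 (10.6%, Wilson interval 5.23 to 20.3) had a peak in or within 3 kb of the gene for PBS and 5 (7.58%, 3.28 to 16.5) in that of vasostatin-2. These intervals overlap those of the Hox genes. Of their 34 CpG-rich promoters 1 (2.94%, 0.521 to 14.9) had a PBS peak within 1 kb and 1 a vasostatin-2 peak, below the 27.2% and 18.4% given above. Dlx2, a factor of forebrain and craniofacial development, had the strongest peak of this list and had it in both libraries, with 28 fragments (8.16-fold) and 23 fragments (7.91-fold). Its summits lay 262 and 246 bp beyond a gene end, but 3608 and 3592 bp from the listed start of Dlx2. Irx5, an Iroquois factor, had 13 fragments (8.12-fold) in the PBS list. The other named genes of the list had a peak in 1 list, with 4 to 9 fragments: Gbx1, Emx2 and Lhx2 in PBS, and Lmx1b, Pax3 and Irx2 in vasostatin-2.

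Genes related to the Hox genes by function or by position were counted in the same way. The 12 neighbours among them, listed for position alone, had a peak in 4 cases in each list, with Cbx5 and Hnrnpa1 sharing a peak. Of 69 genes in a list of cofactors, chromatin regulators, upstream signals, insulator proteins and neighbours, 29 (42.0%, Wilson interval 31.1 to 53.8) had a PBS peak and 25 (36.2%, 25.9 to 48.0) a vasostatin-2 peak, beside 24.2% and 22.3% of all protein-coding genes. Their median length was 28318 bp, against 17169 bp for all genes, and the part of length in these shares was not tested. Of the 9 genes for the TALE cofactors of Hox proteins 5 had a PBS peak (55.6%, Wilson interval 26.7 to 81.1) and 5 a vasostatin-2 peak, and 3 had one in both lists. Their median length was 139224 bp. Pknox1 had the highest fold, with 38 fragments (13.9-fold) for PBS and 16 (7.68-fold) for vasostatin-2, 256 bp outside a gene end. Meis2 had 11 fragments (7.2-fold) and 10 fragments (7.46-fold) at a site inside the gene. Meis1, a main partner of Hox proteins, had 6 fragments (4.76-fold) in the PBS list alone.

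Of 24 Polycomb genes 9 had a PBS peak (37.5%, Wilson interval 21.2 to 57.3) and 7 a vasostatin-2 peak (29.2%, 14.9 to 49.2). Both intervals include the shares over all genes, 24.2% and 22.3%. Ezh2, the methyltransferase of Polycomb complex PRC2, had 9 and 5 fragments (6.58-fold and 4.34-fold), 8 and 87 bp from a gene end. Its partners Eed and Suz12, which were chosen for mention after their values were seen, had peaks in both lists within 38 bp of an end, with 8 and 10 fragments for Eed and 7 and 10 for Suz12. Phf19, an accessory subunit, had the strongest peak of these genes, inside the gene, with 22 fragments (10.1-fold) and 14 fragments (7.52-fold).

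Of 9 trithorax and H3K27 demethylase genes 5 had a PBS peak (55.6%, Wilson interval 26.7 to 81.1) and 5 a vasostatin-2 peak, 4 of them in both lists, beside the same 24.2% and 22.3% of all genes. Kmt2a, the MLL1 methyltransferase that maintains Hox expression, had a PBS peak of 16 fragments (9.69-fold) 147 bp from an end and none in the vasostatin-2 list. Kdm6a, a demethylase of H3K27, had 10 fragments (7.38-fold) and 6 fragments (5.07-fold). Of 12 upstream regulators 4 had a PBS peak (33.3%, 13.8 to 60.9) and 2 a vasostatin-2 peak (16.7%, 4.70 to 44.8), the first above and the second below the share over all genes, which both intervals include. Rara, which encodes a retinoic acid receptor that acts on Hox genes, had 11 fragments (4.62-fold) in the PBS list alone. Of 3 insulator genes 2 had peaks in both lists: Maz, with 30 fragments (10.1-fold) and 16 fragments (7.29-fold), and Ctcf, with 11 and 10.

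Of 12 listed neighbours of the clusters found in the annotation 4 had a PBS peak and 4 a vasostatin-2 peak (33.3%, Wilson interval 13.8 to 60.9, in each). The interval includes the shares over all protein-coding genes, 24.2% and 22.3%. Those with a peak lie beside Hoxb and Hoxc, but too few genes are listed at each cluster to compare the clusters. In both lists 3 had one: Ttll6, at different sites, and Cbx5 and Hnrnpa1, which share a peak. The first PBS peak above the Hoxc cluster, 203 kb past it, lay beside an end of both Cbx5, the gene of a heterochromatin protein, and Hnrnpa1, a splicing factor gene, and held 27 fragments (11.5-fold). In the vasostatin-2 list Cbx5 had 3 peaks and Hnrnpa1 2, where the PBS list had 1 for either gene. The strongest of these vasostatin-2 peaks overlapped the PBS peak, with 10 fragments (5.37-fold). At Hoxc6 the summits held 7 in each, and whether the 2 sites differ in their ratio between the libraries was not tested.

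**Figure D4:**
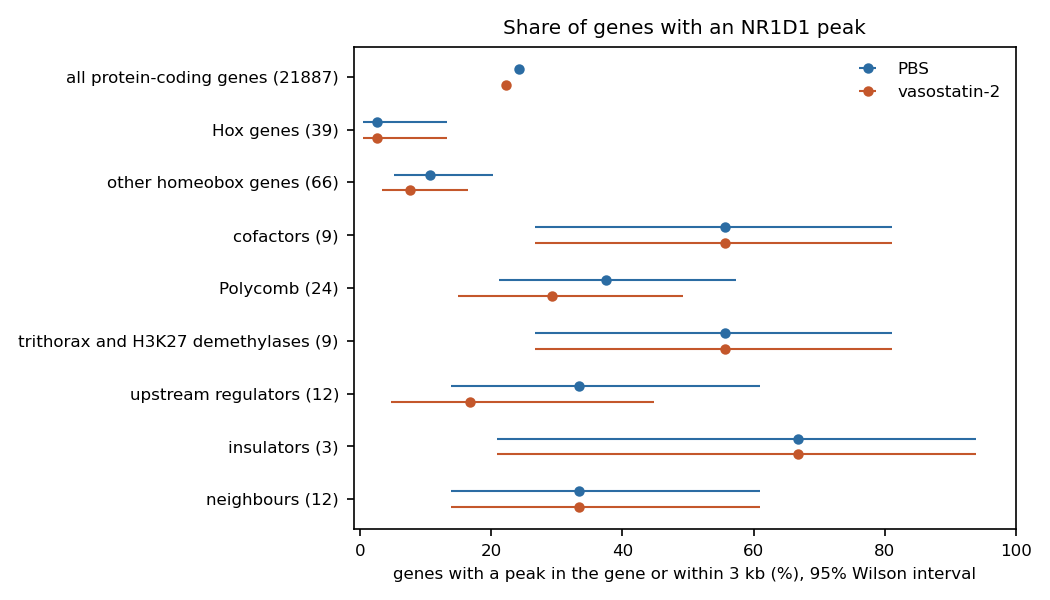
Share of genes (horizontal axis, %, with 95% Wilson intervals) that have a peak in the gene or within 3 kb, for PBS (blue) and vasostatin-2 (orange), by list with the number of genes in brackets. Hox genes lie at 2.56% in both lists, the background at 24.2% and 22.3%, and the lists of regulators and neighbours between 16.7% and 66.7%.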

How the data were processed

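The authors used MACS2 2.2.7.1, BWA 0.7.17 and Trimmomatic 0.39 on mm10. The submitters' processing notes name them without roles or settings, so whether the IgG libraries entered the background is not known. Each deposited list comes from 1 library and has no header. Its columns follow the caller's usual order: a score (the -log10 q scaled and rounded down, not used), the deposited fold enrichment of the summit, its deposited -log10 p and -log10 q, and the summit's offset. Positions are written from 1.

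Fragments at each summit were recovered as the whole number whose Poisson tail and ratio to the background return the deposited values, with a tolerance of 0.0005 on the -log10 p. A solution was found for 100% of peaks, and for 100% of 1979 simulated peaks the right one. The background floor was 0.31 fragments (PBS) and 0.381 (vasostatin-2). The median summit held 8 and 7 fragments, and total reads are not given in the sources used here.

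Peaks were shared when they overlapped by at least 1 bp, a step that matched bedtools 2.31.1 for 100% of 2000 simulated peaks. Gene spans are those of RefSeq on GRCm38.p6 (mm10). That table gives no strand or exons, so starts came from the RefSeq promoter table (17492 protein-coding genes). The limit for a share with a count of 0 is 3 counts, while that for 0 peaks in a cluster is the exact Poisson 3.69. Intervals are 95%. Named genes are all Hox genes with a peak, up to 8 genes of highest fold from the other homeobox list and from the list of Hox-related genes, and Meis1, Ezh2, Kmt2a and Rara. Results that need certain genes are left out. Of the smooth muscle, endothelial and fibroblast markers 2 of 5, 2 of 3 and 1 of 3 genes had a PBS peak. For vasostatin-2 they were 1 of 5, 2 of 3 and 1 of 3. Of all protein-coding genes 24.2% and 22.3% had one. The markers are too few for a comparison, and their median lengths differ (15250, 42892 and 32156 bp). The genes, lists and tests were chosen with earlier results of these data known.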

Additional observations from a re-analysis of the deposited data

How the results depend on the processing

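The counts at the Hox clusters rest on 1 peak in each list. With q under 1e-05, among peaks at or above the median fold, and with at least 8 fragments (chosen after seeing the data), the clusters held 0 peaks, 0 shared peaks and 0 Hox genes with a peak in both lists, where all protein-coding genes had one in 10.9%, 14.6% and 15.7% of cases for PBS and 7.20%, 12.8% and 12.3% for vasostatin-2. With summits within 200 bp 0 were shared. A flank of 50 kb gave 2 vasostatin-2 peaks, the second inside Ttll6. A gene window of 10 kb gave 2 Hox genes in each list, Hoxc6 and Hoxc8 (background 29.5% and 28.0%), and a gene-end distance of 2 kb gave 1 gene-end peak in each list where 1 kb gave 0. With 3 kb around either gene end alone (chosen after seeing the data) the count of Hox genes was 1 in each list, against 18.1% and 13.8% of all genes. Of the recomputed values 25 moved and 41 did not. Some could not move, such as a gene-end count of 0 recounted in a stricter list, so this tally does not measure stability. No paired analysis was possible because there is 1 library per treatment. A site with fewer fragments than the caller's threshold is not in the lists, so absence of a peak is not absence of NR1D1.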
